A study of Rattus norvegicus with 24 samples.

Results

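Fmo2 (ENSRNOG00000003510), Gramd1b (ENSRNOG00000053577), Ggct (ENSRNOG00000034084), Steap4 (ENSRNOG00000008602), Scube3 (ENSRNOG00000000500), Ak4 (ENSRNOG00000045738), Gldc (ENSRNOG00000011599) and Adra2b (ENSRNOG00000013887) are 8 of the 32883 genes listed in a count table of rat kidney RNA. The genes were chosen by their measured pregnancy changes in these same rats, as genes that differed between pregnant and non-pregnant rats of the CD strain and not of the BN strain. Those changes are therefore given below as a description without a test. All 8 passed the filter on low counts that left 14212 genes for testing. Kidney cross-sections came from 12 female rats, aged 2 months by one label and 6 to 8 weeks by another. There were 3 rats in each of 4 groups: non-pregnant CD rats (CD-NP), CD rats at day 18 of pregnancy (CD-P18), non-pregnant BN rats (BN-NP) and BN rats at day 18 (BN-P18). CD is an outbred Sprague Dawley stock and BN is the inbred Brown Norway strain, and pregnant females had been mated with males of their own strain. No group carried a transgene or received a drug according to the labels, and a cross-section holds many cell types at once, so that fewer cells of a type and less RNA per cell cannot be told apart.

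By the thresholds used here, 7 of the 8 genes were called in CD and not in BN. The genes were chosen for this in the same rats, so the count does not test the label of a CD-only change. With 3 rats in a group, not passing in BN does not show that a gene was unchanged there. The thresholds were a Benjamini-Hochberg adjusted p under 0.1 in edgeR together with a log2 change over 0.32 in size. All 8 genes were past both in CD, where 4.71% of all tested genes were. Adra2b was also past them in BN, where 1.40% of all tested genes were and 0.577% were lower, and its direction there was the opposite one. In all, 589 genes were past the thresholds in CD and not in BN, and 7 of the 8 genes are among them. In CD pregnancy, 6 genes were higher (Fmo2, Gramd1b, Steap4, Ak4, Gldc and Adra2b) and 2 were lower (Ggct and Scube3), against 2.56% of all tested genes called higher and 2.15% called lower.

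The 8 genes have no single pathway in common. During pregnancy the maternal kidney filters more plasma, reabsorbs more salt, amino acids and glucose, and works under high levels of progesterone, glucocorticoids and placental hormones. Its tubule cells are rich in mitochondria and carry out much of the body's glycine, glutathione and xenobiotic metabolism. The genes described here include members of enzyme families of that metabolism (Fmo2, Gldc and Ggct) and a mitochondrial adenylate kinase (Ak4). The others encode proteins that handle sterol or metal (Gramd1b and Steap4), and a secreted protein and a receptor of cell signalling (Scube3 and Adra2b).

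Promoter sequences of 4 of these genes are shown, a pair that was higher (Fmo2 and Steap4) and a pair that was lower (Ggct and Scube3) in CD pregnancy, because genes that move together may be compared by what stands before their start. Each window holds 250 bases before and 50 bases after the gene's start in RefSeq on the build GRCr8, is written in the direction of the gene, and lies at chr13:77777485-77777784 on the minus strand for Fmo2, chr4:27054720-27055019 on the minus strand for Steap4, chr4:85459497-85459796 on the minus strand for Ggct and chr20:6200816-6201115 on the plus strand for Scube3. Capitals mark the matches to 8 short motifs that were searched on both strands.
Fmo2: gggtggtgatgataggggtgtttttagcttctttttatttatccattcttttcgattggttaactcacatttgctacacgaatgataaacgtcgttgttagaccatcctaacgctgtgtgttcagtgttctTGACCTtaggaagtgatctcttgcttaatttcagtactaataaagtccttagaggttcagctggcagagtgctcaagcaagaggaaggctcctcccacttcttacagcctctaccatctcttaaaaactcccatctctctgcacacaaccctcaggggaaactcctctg
Steap4: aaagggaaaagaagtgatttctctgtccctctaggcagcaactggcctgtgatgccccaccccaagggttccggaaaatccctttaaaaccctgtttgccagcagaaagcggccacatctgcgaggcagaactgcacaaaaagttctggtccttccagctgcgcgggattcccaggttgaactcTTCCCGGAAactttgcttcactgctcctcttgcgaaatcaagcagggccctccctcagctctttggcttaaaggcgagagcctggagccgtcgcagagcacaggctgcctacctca
Ggct: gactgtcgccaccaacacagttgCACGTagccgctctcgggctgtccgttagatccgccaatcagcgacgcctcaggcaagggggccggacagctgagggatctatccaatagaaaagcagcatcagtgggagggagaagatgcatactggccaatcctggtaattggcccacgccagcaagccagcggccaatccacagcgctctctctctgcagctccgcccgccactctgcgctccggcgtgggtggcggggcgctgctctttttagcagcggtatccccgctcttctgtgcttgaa
Scube3: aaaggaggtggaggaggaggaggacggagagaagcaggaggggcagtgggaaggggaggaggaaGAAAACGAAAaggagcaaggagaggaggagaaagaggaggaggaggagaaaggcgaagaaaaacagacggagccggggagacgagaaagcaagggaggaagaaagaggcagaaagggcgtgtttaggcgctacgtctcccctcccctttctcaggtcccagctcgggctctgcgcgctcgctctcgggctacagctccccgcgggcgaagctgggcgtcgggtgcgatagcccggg

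A promoter window was found for 7 of the 8 genes, and Gramd1b was without an entry. The Steap4 window held a STAT motif (TTCNNNGAA) that starts at position -66 relative to the gene's start, and 8.87% of 33469 rat promoters held it. The Fmo2 and Ak4 windows held the nuclear receptor motif AGGTCA on the minus strand at positions -119 and -239, a motif of 16.2% of promoters. The hypoxia core ACGTG, which is also part of the E-box CACGTG, lay on the minus strand in Ggct at -227 and in Adra2b at -23, and 19.3% of promoters held it. The interferon-stimulated motif was in Scube3 at -186 and in Adra2b at -195, against 3.92% of promoters. None of the 7 windows held the glucocorticoid and progesterone receptor core ACANNNTGT (6.86% of promoters), the E-box CACGTG (6.42%), the CRE TGACGTCA (1.83%) or TATAAA (14.2%), and the Gldc window held none of the 8 motifs. No motif was thus shared by more than 2 of the windows, and a match is a run of letters and not a binding site. The number of CG dinucleotides ran from 5 in Fmo2, below the median of 7 for all promoters, to 28 in Adra2b, with 10 to 23 in Steap4, Gldc, Ggct, Scube3 and Ak4.

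The reads counted on genes numbered 8274159 to 11879451 per rat. The 8 genes had 220 to 3915 reads in each rat, so that none of their own values rests on few reads. Levels are CPM, that is read counts relative to all reads on genes, after TMM scaling, which depend on the length of a gene and are compared here between rats and not between genes. Some other genes named below had low CPM and so fewer reads, with means of 3.28 CPM for Npas2 in CD-P18 and 5.16 CPM for Mrc1 in CD-NP. Changes are log2 fold changes with the standard error (SE) of an edgeR quasi-likelihood fit over all 12 rats.

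Enzymes of the flavin-containing monooxygenase family use NADPH to add oxygen to nitrogen and sulfur compounds. Fmo2 is a gene of this family, and only its RNA was measured here. Its level was 79.4, 84.6 and 86.4 CPM in the CD-NP rats and 251, 224 and 227 CPM in the CD-P18 rats. In BN it was 116, 129 and 100 CPM in the non-pregnant and 99.1, 65.9 and 101 CPM in the pregnant rats. The 3 CD-P18 rats thus stood above all other 9 rats (CD-P18 lay outside all others for 6 of the 8 genes and for 5.73% of all tested genes), while the BN groups overlapped. The log2 change was 1.49 in CD (SE 0.14, a fold change of 2.81) and -0.38 in BN (SE 0.14). From low to high, the group means were 83.5 ± 3.62 CPM in CD-NP (SD, n = 3 here and below), 88.6 ± 19.7 in BN-P18, 115 ± 14.3 in BN-NP and 234 ± 15 in CD-P18, and of the neighbours in this order CD-NP overlapped with BN-P18 and BN-P18 with BN-NP.

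Gldc encodes glycine decarboxylase, the mitochondrial enzyme that opens the cleavage of glycine and feeds one-carbon units to folate. The CD-NP rats had 37.7, 39.8 and 24.1 CPM and the CD-P18 rats 118, 106 and 105 CPM. The BN-NP rats had 60.1, 80.8 and 55.1 CPM and the BN-P18 rats 60.4, 35.4 and 61.4 CPM. The log2 change in CD was 1.69 (SE 0.21, a fold change of 3.24), the largest of the 8, and that in BN was -0.32 (SE 0.21). The CD-P18 rats were again apart from all others, and every BN-NP rat was above every CD-NP rat. The spread among rats of a group was also the widest of the 8 genes, with a pooled SD of 0.34 on the log2 scale against a median of 0.17 over all tested genes.

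Ak4 encodes an adenylate kinase of the mitochondrial matrix, which passes phosphate groups between nucleotides. Its level was 187, 169 and 129 CPM in the CD-NP rats and 336, 291 and 344 CPM in the CD-P18 rats. In BN it was 217, 205 and 163 CPM at the NP stage and 177, 153 and 146 CPM at P18. The CD-P18 rats were apart from the rest, and the other 3 groups overlapped with their neighbours in the order of means (BN-P18, CD-NP, BN-NP). The log2 change was 1.0 in CD (SE 0.14, a fold change of 2.0) and -0.30 in BN (SE 0.14).

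Ggct encodes gamma-glutamylcyclotransferase, which releases amino acids from gamma-glutamyl dipeptides in the turnover of glutathione, and it went the other way. The CD-NP rats had 173, 191 and 228 CPM and the CD-P18 rats 106, 101 and 98.0 CPM. The BN-NP rats had 132, 96.3 and 129 CPM and the BN-P18 rats 157, 146 and 148 CPM. All 3 CD-P18 rats were below all CD-NP rats and all 3 BN-P18 rats were above all BN-NP rats, so that both strains separated by stage in opposite directions. The log2 change was -0.95 in CD (SE 0.12, a ratio of 0.516) and 0.34 in BN (SE 0.12, a ratio of 1.26), and the BN change passed the fold threshold but not the adjusted p threshold. The order of means was CD-P18 (102 ± 4.11 CPM), BN-NP (119 ± 19.8), BN-P18 (150 ± 5.93) and CD-NP (198 ± 28), in which CD-P18 and BN-NP overlapped.

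**Figure D1:**
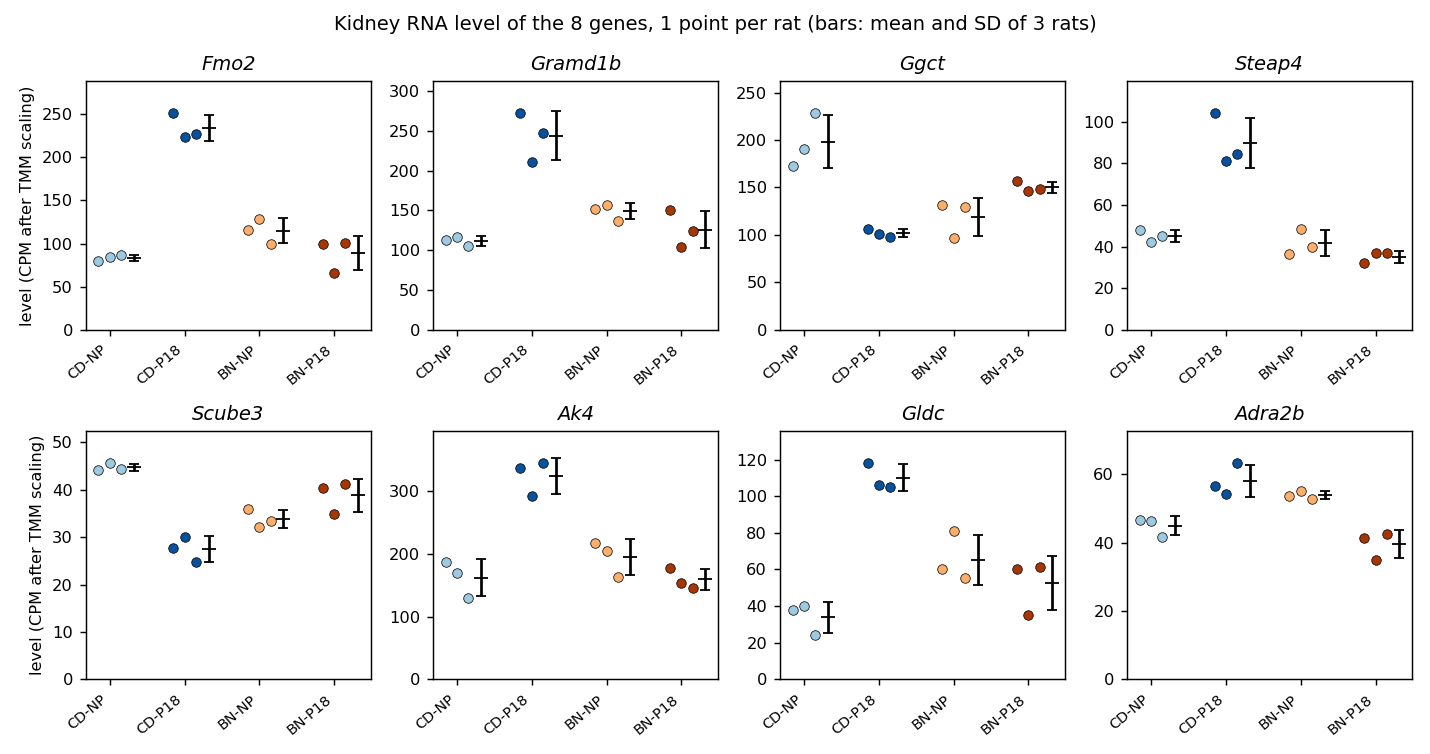
Level of each of the 8 genes in CPM after TMM scaling (vertical axis, from 0) in the 12 rats, by group (horizontal axis), with 1 point per rat and the mean and SD of the 3 rats of a group beside the points. The CD-P18 rats lie above or below all other 9 rats for 6 genes, as they do for 5.73% of all tested genes, and for Ggct and Adra2b they overlap with BN-NP rats.

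Gramd1b encodes Aster-B, a protein of the endoplasmic reticulum that carries cholesterol inward from the plasma membrane. The CD-NP rats had 113, 117 and 105 CPM and the CD-P18 rats 272, 211 and 248 CPM. The BN-NP rats had 152, 157 and 137 CPM and the BN-P18 rats 150, 104 and 124 CPM. The pattern was that of Fmo2, with the same order of the 4 groups and the same overlaps, and a log2 change of 1.13 in CD (SE 0.12, a fold change of 2.18) and -0.24 in BN (SE 0.12).

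Steap4 encodes a metalloreductase that reduces iron and copper so that cells can take them up. It was measured at 48.1, 42.2 and 45.2 CPM in the CD-NP rats and 104, 81.1 and 84.5 CPM in the CD-P18 rats. The BN-NP rats had 36.5, 48.6 and 39.9 CPM and the BN-P18 rats 31.9, 36.8 and 36.7 CPM. Its log2 change was 0.99 in CD (SE 0.11, a fold change of 1.99) and -0.24 in BN (SE 0.12). Unlike Fmo2, Gramd1b and Gldc, it had non-pregnant groups that overlapped between the strains.

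Scube3 encodes a secreted protein with CUB and EGF-like domains that acts on TGF-beta and BMP signalling. The CD-NP rats had 44.1, 45.6 and 44.3 CPM and the CD-P18 rats 27.8, 30.1 and 24.7 CPM. The BN-NP rats had 35.9, 32.1 and 33.3 CPM and the BN-P18 rats 40.3, 34.8 and 41.2 CPM. The CD-P18 rats were below all other rats, and the CD-NP rats were above all others. The log2 change was -0.70 in CD (SE 0.09, a ratio of 0.616) and 0.20 in BN (SE 0.09).

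Adra2b encodes the alpha-2B adrenergic receptor, a Gi-coupled receptor for noradrenaline that is abundant in rat kidney. Its level was 46.8, 46.3 and 41.8 CPM in CD-NP and 56.7, 54.4 and 63.3 CPM in CD-P18. In BN it was 53.6, 55.1 and 52.9 CPM in the non-pregnant rats and 41.5, 35.0 and 42.5 CPM in the rats at day 18. Neither strain's groups overlapped, with the pregnant rats higher in CD and lower in BN. The log2 change of 0.37 in CD (SE 0.09, a fold change of 1.29) was the smallest of the 8, and the change of -0.44 in BN (SE 0.09, a ratio of 0.736) was the largest in size. The CD change no longer passed the thresholds without CD-NP replicate 3 or CD-P18 replicate 3 (the log2 change over all single-rat omissions was 0.31 to 0.42), and the BN change no longer did without BN-NP replicate 1, BN-NP replicate 2 or BN-P18 replicate 2 (-0.49 to -0.35).

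All 8 genes had changes of opposite sign in CD and BN, which was so for 47.7% of all tested genes. The rats of CD-P18 and CD-NP did not overlap for 8 of 8 genes, against 21.5% of all tested genes, and those of BN-P18 and BN-NP did not overlap for 2 of 8, against 14.7%. The median size of the log2 change was 1.0 in CD (0.14 over all tested genes) and 0.31 in BN (0.11). In the difference between the strains' changes, BN minus CD, all 8 had an adjusted p under 0.1, as 0.943% of all tested genes did, with log2 differences from -2.01 for Gldc to 1.29 for Ggct. These contrasts use the rats by which the genes were chosen, and nothing is read from the counts. Ranked by the p of that difference, the 8 genes held places 1, 2, 3, 7, 8, 9, 10 and 12. Other genes among the leading 14 places were Npas2, Mrc1, Nr1d1, LOC688553 and Tsc22d3, which were also past the thresholds in CD. Npas2 and Nr1d1, which belong to the circadian clock, had log2 changes of -2.07 (SE 0.25) and -1.62 (SE 0.16) in CD and 0.48 (SE 0.22) and 0.05 (SE 0.15) in BN. The hour of tissue collection is not among the labels, and the part of the clock in the changes of the 8 genes was not tested.

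**Figure D2:**
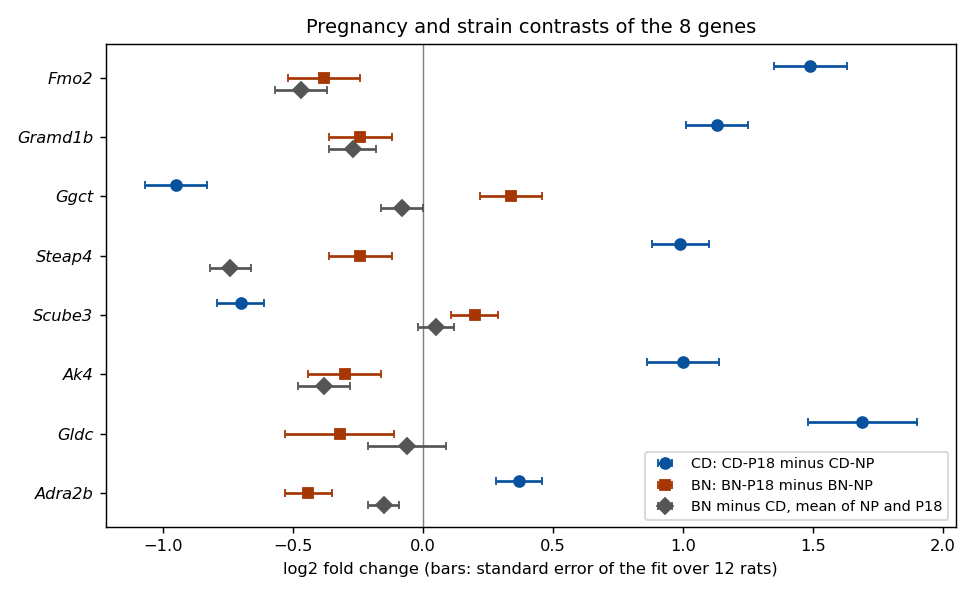
Log2 fold change (horizontal axis) of the 8 genes (vertical axis) with pregnancy in CD (circles), with pregnancy in BN (squares), and between the strains averaged over both stages (diamonds), each with the standard error of the fit over 12 rats. For each gene the circle and the square lie on opposite sides of 0, and the diamonds of Steap4, Fmo2 and Ak4 are past the thresholds to the left of 0.

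The difference between the strains averaged over both stages uses all 4 groups. The genes were chosen by values of these groups, so this difference too is given as a description. The averages of Steap4, Fmo2 and Ak4 were past the thresholds and lower in BN, with log2 differences of -0.74 (SE 0.08), -0.47 (SE 0.10) and -0.38 (SE 0.10). These are 3 of the 8 genes, and 11.4% of all tested genes were past the same thresholds in either direction and 5.68% were lower. Gramd1b, at -0.27 (SE 0.09), did not reach the fold threshold. It did without CD-P18 replicate 2 (-0.32) or without BN-P18 replicate 1 (-0.34). Ggct (-0.08, SE 0.08), Scube3 (0.05, SE 0.07), Gldc (-0.06, SE 0.15) and Adra2b (-0.15, SE 0.06) were not past the thresholds.

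An average of this kind moves when a single group stands apart, as CD-P18 does here, and the stages differed. At day 18, BN minus CD was -1.35 for Steap4, -1.40 for Fmo2 and -1.03 for Ak4 on the log2 scale. In non-pregnant rats it was -0.12, 0.46 and 0.27, so that for Fmo2 and Ak4 the non-pregnant BN rats had the higher mean. For Gldc the stages were 0.94 and -1.07 and for Ggct -0.73 and 0.56, nearly equal and of opposite sign. The rats of BN-NP and CD-NP did not overlap for 6 of the 8 genes, against 24.4% of all tested genes. The exceptions were Steap4 and Ak4. BN-P18 and CD-P18 did not overlap for 8 of 8, against 26.5%. The genes were chosen by values of these same rats, so both counts are a description and no separate result. For 7 of the 8 genes the mean of BN-NP lay between those of CD-NP and CD-P18, and Steap4 was the exception. The share of all tested genes with such an order was not computed. A wide gap between CD-NP and CD-P18 is what the genes were chosen by, so nothing is read from this order.

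The rats of a group differed among themselves in ways that the group contrasts do not use. Over the deviations of the 12 rats from their group means, Pearson's r was positive in 14 of the 15 pairs among the 6 genes that were higher in CD pregnancy (-0.06 to 0.76). The highest values were 0.76 for Gldc with Adra2b, 0.75 for Fmo2 with Gramd1b and 0.72 for Gldc with each of Fmo2 and Gramd1b. Steap4 was apart from this, with r between -0.06 and 0.18 to the other 5 genes. Ggct had negative values with all 6 (-0.54 with Gldc and -0.51 with Steap4), whereas Scube3 had values from -0.37 to 0.50. The deviations of a group sum to 0 and all genes of a rat share its scaling, so these values of r are a description.

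**Figure D3:**
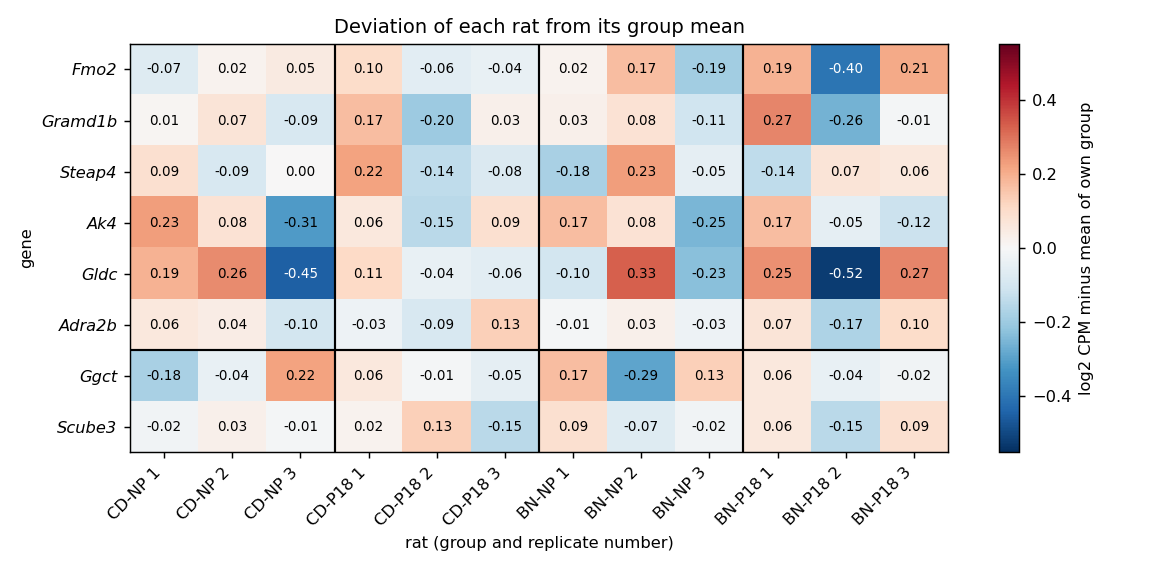
Deviation of each rat (horizontal axis) from the mean of its own group for each gene (vertical axis), in log2 CPM, with the 6 genes that were higher in CD pregnancy above the line and the 2 that were lower beneath it. BN-P18 replicate 2 is low for Fmo2, Gldc, Gramd1b and Adra2b, and BN-NP replicate 2 is above its group mean for all 6 upper genes.

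The deviations of single rats were as follows. BN-P18 replicate 2 was the lowest rat of its group for Gldc (-0.52), Fmo2 (-0.40), Gramd1b (-0.26) and Adra2b (-0.17 on the log2 scale). BN-NP replicate 2 was above its group mean in 6 of the 6 genes, and BN-NP replicate 3 and CD-P18 replicate 2 were above it in 0 of 6. CD-NP replicate 3 was low for Gldc (-0.45) and Ak4 (-0.31) and high for Ggct (0.22). Without BN-P18 replicate 2, the log2 change in BN went from -0.32 to -0.10 for Gldc, from -0.38 to -0.20 for Fmo2 and from -0.24 to -0.12 for Gramd1b. Without BN-NP replicate 2, it went to -0.14 for Gldc, from -0.24 to -0.12 for Steap4 and from 0.34 to 0.21 for Ggct, and without BN-P18 replicate 1 it went to -0.39 for Gramd1b. All of these kept their sign and stayed outside the thresholds. In CD, leaving out any single rat changed no log2 change by more than 1.5 times.

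Over the levels of all 12 rats, Pearson's r ran from 0.67 to 0.97 among the 6 genes that were higher in CD pregnancy and from -0.91 to -0.59 between these and Ggct or Scube3, which had r = 0.90 with each other. The shared contrast that chose the genes sets most of this. Among all other tested genes, the one most like both Fmo2 (r = 0.964) and Gramd1b (r = 0.955) was Mrc1, the macrophage mannose receptor. LOC688553 came next for both and also for Ak4, after Mlf2 (0.962). The genes most like Gldc, Steap4, Ggct, Scube3 and Adra2b were Slc28a1 (0.954), a nucleoside transporter, Nat8f5 (0.930), Sdc4 (0.944), a membrane proteoglycan, Tex14 (0.928) and ENSRNOG00000005045 (0.929), all over 12 rats.

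Since Mrc1 marks macrophages, the whole list of 8 macrophage genes is given. Of these, 6 had values, and all 6 were past the thresholds and higher at day 18 in CD and 2 of them, C1qa and C1qc, in BN. In all marker lists, only genes that could be paired with a symbol had values, and such genes lean towards changed ones. Of all genes paired with a symbol, 21.5% were past the thresholds in CD and 6.52% in BN, in either direction. Their summed level lay between 99.8 and 118 CPM in the CD-NP rats and between 158 and 188 CPM in the CD-P18 rats. For BN it lay between 99.1 and 109 CPM without and between 125 and 137 CPM with pregnancy. The sum was thus higher in the pregnant rats of both strains. Mrc1 itself averaged 5.16 ± 0.649 CPM in CD-NP rats and 18.9 ± 1.12 CPM in CD-P18 rats, and its BN means were 7.94 ± 1.04 CPM (NP) and 6.89 ± 1.94 CPM (P18). Podocyte genes also moved with CD pregnancy, with 2 of 3 with values lower, among them Nphs1 (log2 -0.58, SE 0.15), while the tubule lists were mixed. Of 3 proximal tubule genes, Slc34a1 was lower (-0.47, SE 0.13), with -0.10 (SE 0.14) for Slc5a2 and 0.11 (SE 0.14) for Slc22a6, and of 2 distal convoluted tubule genes Slc12a3 was lower (-0.44, SE 0.08), with -0.03 (SE 0.10) for Trpm6. The summed levels of 3 proximal tubule genes lay between 2870 and 3680 CPM in the CD-NP rats and between 2130 and 2750 CPM in the CD-P18 rats, which did not overlap. The BN sums, 2410 to 2970 CPM without and 1860 to 2500 CPM with pregnancy, did. All 3 genes had negative log2 changes in BN, -0.35 (SE 0.13) for Slc34a1, -0.29 (SE 0.14) for Slc22a6 and -0.64 (SE 0.15) for Slc5a2. Of these, only Slc5a2 was past the thresholds there. Slc34a1 alone averaged 2720 CPM in CD-NP rats and 1960 CPM in CD-P18 rats, and so made up most of the CD sums. A list of the proximal straight tubule (S3), with 3 genes with values, differed. Its sums were 1150 to 1420 CPM in CD-NP and 1140 to 1420 CPM in CD-P18 rats. In BN they were 862 to 1160 CPM without and 1240 to 1440 CPM with pregnancy. No gene of the S3, collecting duct principal cell or intercalated cell lists was called with pregnancy in either strain. The part of these cell types in the changes of the 8 genes was not tested.

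The relatives and partners of the 8 genes were described through 9 lists with 99 genes, of which 28 besides the 8 could be given a value. The lists come from general knowledge of each gene's family or pathway. Symbols were paired with identifiers through a table of genes with low p in these samples, so genes with a value lean towards changed ones, and 21.5% of all genes paired with a symbol were called in CD, 6.52% in BN and 39.3% between the strains. Of the 28, 4 were past the thresholds in CD (3 higher and 1 lower, 14.3%), 4 in BN (1 higher and 3 lower, 14.3%), none in the difference between the strains' changes, for which 4.49% of the paired genes were called, and 14 in the averaged strain difference (6 higher and 8 lower in BN, 50%). The median size of the log2 change of the 28 was 0.17 in CD and 0.22 in BN, against 0.27 and 0.17 for all genes with a symbol.

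**Figure D4:**
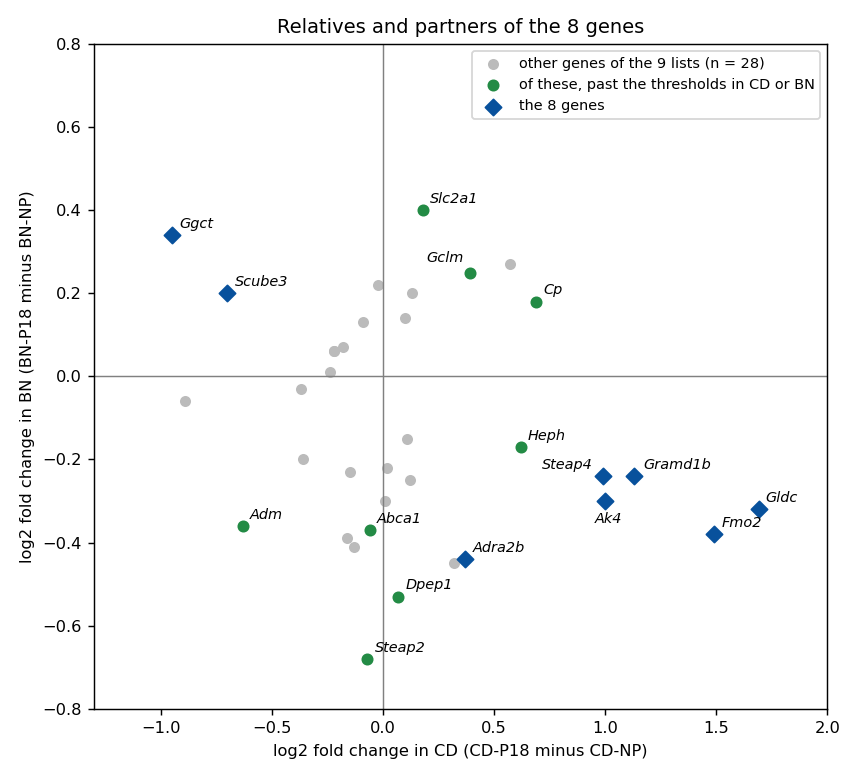
Log2 fold change with pregnancy in CD (horizontal axis) and in BN (vertical axis) for the 8 genes (diamonds) and 28 other genes of the same families and pathways (circles), of which those past the thresholds in CD or in BN are named. The 8 genes lie in the 2 quadrants of opposite sign, and for no other gene of the lists is the difference between its CD and BN pregnancy changes past the threshold.

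Among the oxygenases, Fmo1 and Fmo4 were not past the thresholds in either strain, with log2 changes of -0.13 (SE 0.13) and -0.22 (SE 0.12) in CD. Averaged over both stages, Fmo4 was lower in BN (-0.55, SE 0.09, adjusted p = 0.00119, by edgeR). Of the glycine and one-carbon enzymes, 0 of 4 besides Gldc were called with pregnancy. Amt, the partner of glycine decarboxylase in the same enzyme system, had -0.24 (SE 0.11) in CD and 0.01 (SE 0.11) in BN.

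Ak4 also stands in a list of genes that respond to low oxygen, in which 4 others had values. Slc2a1, a glucose transporter, was higher in BN (0.40, SE 0.09), and Adm, the vasodilator peptide adrenomedullin, was lower in CD (-0.63, SE 0.18). Of 5 other genes of the glutathione cycle, Gclm, a subunit of the enzyme that makes gamma-glutamylcysteine, was higher in CD (0.39, SE 0.12), and Dpep1, which cleaves cysteinylglycine outside the cell, was lower in BN (-0.53, SE 0.13). Oplah, which works on the product of Ggct, had 0.02 (SE 0.08) in CD and -0.22 (SE 0.08) in BN.

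The metal list held the most genes called in CD. Cp and Heph, the ferroxidases ceruloplasmin and hephaestin, were higher there (0.69, SE 0.17, and 0.62, SE 0.18), with 0.18 (SE 0.17) and -0.17 (SE 0.18) in BN. Steap2, a metalloreductase of the same family as Steap4, was lower in BN (-0.68, SE 0.13) and had -0.07 (SE 0.13) in CD. Among sterol transport genes, Abca1, the exporter of cholesterol, was lower in BN (-0.37, SE 0.08), and Npc2 was not called (0.11, SE 0.09, in CD and -0.15, SE 0.09, in BN). No gene of the TGF-beta and BMP list besides Scube3 (4 with values) and no adrenergic receptor besides Adra2b (Adra1a and Adra1b) was called with pregnancy. Adra1a had 0.12 (SE 0.15) in CD and -0.25 (SE 0.14) in BN, and Adra1b had -0.37 (SE 0.18) and -0.03 (SE 0.21). Several of these calls depended on single rats. When rats were left out singly, between 0 (without CD-P18 replicate 3) and 4 genes of the lists were called in CD and between 0 (without BN-NP replicate 2) and 3 in BN.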

How the data were processed

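RNA-seq of kidney cross-sections from 12 rats was analysed. The authors made stranded libraries after removal of ribosomal RNA, used Trimmomatic for trimming and STAR (2.5.2 in the submitters' processing notes) for alignment to Rnor_6.0, an assembly of the BN strain, counted reads per gene with HTSeq (0.6.1) and deposited raw counts with 1 column per rat. The annotation release and the use of strand in counting are not given in the sources used here. Summary lines held 72.5 to 75.6% of the entries per rat and stayed out of library sizes and tests. Between 8274159 and 11879451 reads per rat fell on genes. Every rat was grouped by its label.

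With edgeR 4.0.16 in R 4.3.3, 14212 genes kept by filterByExpr were scaled by TMM and fitted without covariates by quasi-likelihood over the 4 groups, with Benjamini-Hochberg adjustment over all of them. Standard errors were derived from the F statistic, and log2 CPM used a prior count of 2. The fit was tested on simulated data. The 8 genes, the lists and the motifs were chosen with earlier results of these data known. Named besides the 8 genes are list genes past the thresholds in CD or BN (at most 4 a list), for each gene the 3 with the highest Pearson's r (of which the text gives the leading ones), and genes chosen after their values were seen: those ranked near the 8 by the difference between strains, marker genes, and list genes given for comparison.

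Symbols were paired with identifiers by matching log2 fold changes (within 0.003) and mean levels (within 0.004) of the study's supplementary gene table with the counts, which paired 3007 of 3064 symbols, 8 of 8 for the genes described. With signs turned, 0.979% of symbols found a match. No value of that table is reported. Alternatives were other scalings, filters, thresholds, DESeq2 1.42.0, a replicate block and each rat left out. The bisulfite sequencing lists were not used here, since no gene annotation of their build was at hand to place the 8 genes. The values of some single genes of the lists and rankings are not reported here.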

Additional observations from a re-analysis of the deposited data

Results flagged for a closer look

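For Ggct and Adra2b, the pregnant and non-pregnant rats did not overlap in either strain, and the direction was opposite in CD and BN. Taken singly, such a lack of overlap was seen for 21.5% of all tested genes in CD and 14.7% in BN, and the joint share was not computed. These are different rats at each stage. The difference of their log2 changes, BN minus CD, was 1.29 for Ggct and -0.81 for Adra2b. The genes were chosen by these changes, and the difference was not tested independently. With groups of 3, no single rat could be judged as standing apart.

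Of the 23 marker genes with values, 3 had a strain difference in pregnancy change with an adjusted p under 0.1 (edgeR quasi-likelihood test). This was so for 4.49% of all genes paired with a symbol and for 0.943% of all tested genes. The marker genes named were chosen after their values were seen, so the values of p are a description. BN minus CD was -2.08 for Mrc1 (SE 0.27, adjusted p = 0.00698) and -1.02 for C1qb (SE 0.23, adjusted p = 0.0868), both macrophage genes, and 0.54 for Slc12a3 (SE 0.12, adjusted p = 0.0695), the sodium chloride cotransporter of the distal convoluted tubule. In all 3 of 3 CD-P18 rats, Mrc1 and C1qb were above and Slc12a3 was below every CD-NP rat. The rats of these 2 groups did not overlap for 21.5% of all tested genes.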

How the results depend on the processing

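Other scalings, filters, DESeq2, the replicate block, fits of only the 2 groups compared and each rat left out moved none of the 448 log2 changes of the 8 genes in CD, in BN and in their difference by more than the SD among rats, and none of these changed sign. All 8 kept an interaction past the threshold under each of these. The count in CD was 7 or 8. At adjusted p under 0.05 and fold over 1.5, the count in BN was 0 and that of the averaged strain difference 1 (Steap4), with Fmo2 (-0.47) and Ak4 (-0.38) no longer passing. With each rat left out, the count in BN ranged from 0 to 1 and that of the strain difference from 3 to 4, with Gramd1b added, and the strain difference of Gldc, which was not called, ranged from -0.16 to 0.05, turning sign without BN-P18 replicate 2. For the 28 list genes, calls in CD fell to 2 under upper-quartile scaling and to 2 with the replicate block, and ranged from 0 to 4 with single rats left out. Calls in BN then ranged from 0 (without BN-NP replicate 2) to 3, and calls in the difference between strains were 3 without a filter on low counts, 1 with the replicate block and 0 to 1 with each rat left out. The cause was not tested. Over all genes, upper-quartile scaling turned the CD split of 364 higher and 305 lower into 315 and 361. Equal replicate numbers name different rats. Of 18 same-numbered pairs, 3 had correlated deviations over 0.1 (-0.188 to 0.27), so the numbers were not treated as pairs. The block gave 8, 1, 8 and 3 of the 8 genes in CD, in BN, in their difference and between strains, as without it. The planned comparison of CpGs at the 8 genes was not run.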
